A study of Mus musculus with 13 samples.

Results

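A set of 9 genes, of 24445 named genes in the count table, handles cholesterol after it has entered or been made by a cell. They are Ch25h and Cyp27a1 (oxysterol synthesis), Soat1, Nceh1 and Lipa (synthesis and hydrolysis of cholesteryl esters), Npc1, Npc2 and Stard3 (sterol transport at the lysosome and late endosome) and Scarb1 (a receptor for high-density lipoprotein). They were taken by symbol, with earlier results of these data known, and where several transcripts carried a symbol the one with the highest total count was used. All 9 were among the 11904 genes that passed the filter on low counts.

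The RNA-seq data came from bone marrow-derived macrophages (BMDMs) of female mice on a C57Bl/6J background, grown in medium conditioned by L929 cells and activated with 100 ng/mL lipopolysaccharide (LPS, a bacterial cell wall component that signals through TLR4). The knockout cells (AclyM-KO) carried loxP sites around exon 9 of Acly, the enzyme that makes cytosolic acetyl-CoA from citrate, together with Cre driven by the myeloid gene Lyz2. The control cells came from Acly fl/fl mice, which carry the same loxP sites. The groups were control after 3 h of LPS (n = 3), AclyM-KO after 3 h (n = 3), control after 24 h (n = 4) and AclyM-KO after 24 h (n = 3), all of them with LPS, so no value below compares activated with resting cells, and the ages of the mice are not given in the sources used here.

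Of the 13 libraries, 12 held between 21274102 and 59577343 counts, and control 24 h replicate 1 held 34467. In that library 1 count was worth 22.4 CPM (counts per 1000000 counts of the library, after scaling), Ch25h had 0 counts, which allows up to 67.2 CPM, and the 9 genes had between 0 and 43 counts, so it was left out of all group values below. Acly itself had 105, 107 and 106 CPM in the control and 37.7, 46.2 and 41.5 CPM in the AclyM-KO libraries at 3 h, and 113, 109 and 107 CPM against 30.1, 30.5 and 29.1 CPM at 24 h. Its log2 fold change was -1.34 ± 0.06 (SE, n = 3 per group) at 3 h and -1.88 ± 0.06 at 24 h, in the direction of the labels, with reads counted over the whole transcript and not over the floxed exon alone. Markers of macrophages (6 of 6 detected, Adgre1, Csf1r and Cd68 among them) summed to 3484 to 4067 CPM in each library, while the summed markers of neutrophils were at 1.19 to 7.12 CPM with Ly6g at 0, of dendritic cells at 0.275 to 2.40 CPM, of fibroblasts at 0 to 1.43 CPM, and of B cells, T cells and mast cells or basophils at no more than 0.288 CPM with Mcpt8 at 0. Of the 29 markers 10 passed the filter on low counts (6 of macrophages, 2 of neutrophils, 1 of fibroblasts and 1 of dendritic cells). None of these 10 passed both thresholds for a change with genotype that are given below. Smaller differences were present among the macrophage markers. At 3 h Mertk (109 to 119 CPM in control, 88.3 to 101 CPM in AclyM-KO libraries) and Fcgr1 were lower in AclyM-KO cells and Adgre1 was higher, without overlap. Csf1r, Cd68 and Itgam overlapped. At 24 h Mertk alone of these markers did not overlap. Over all genes tested 30.1% did not overlap between the genotypes at 3 h and 33.1% at 24 h. In such bulk samples, fewer cells that express a gene and less RNA per cell cannot be told apart.

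A cell that receives more cholesterol than its membranes can hold has several outlets. Low-density lipoprotein is taken up into the lysosome, where the acid lipase Lipa frees cholesterol from its esters, and Npc2, a soluble carrier, hands it to Npc1 in the lysosomal membrane for export. In the endoplasmic reticulum Soat1 re-esterifies surplus cholesterol for storage in lipid droplets, from which Nceh1 releases it again in macrophages. Hydroxylated forms of cholesterol, the oxysterols, are both signals and export forms: Ch25h makes 25-hydroxycholesterol, which activated macrophages secrete and which blocks SREBP processing, and the mitochondrial enzyme Cyp27a1 makes 27-hydroxycholesterol, a ligand of the liver X receptors. Scarb1 (SR-BI) exchanges cholesterol between the cell surface and high-density lipoprotein.

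The genes lie at these places in GRCm38 (mm10). Ch25h is a gene of 1 exon (chromosome 19, 34473778 to 34475164, minus strand). It lies 17153 bases from Lipa (chromosome 19, 34492318 to 34527474, minus strand), its neighbor in the list. Cyp27a1 (chromosome 1, 74713574 to 74737892, plus strand) has 9 exons and Soat1 (chromosome 1, 156424525 to 156474331, minus strand) has 16. Nceh1 is on chromosome 3 (27182965 to 27284608, plus strand), Npc2 on chromosome 12 (84754562 to 84773152, minus strand), Stard3 on chromosome 11 (98358368 to 98381112, plus strand) and Scarb1 on chromosome 5 (125277087 to 125341094, minus strand). The exon of Ch25h overlaps Gm26902, a long noncoding RNA on the opposite strand, and exons of Npc1 overlap Rmc1 and Gm15956, also on the opposite strand. The libraries were strand-specific but the strand setting used in counting was not given, so reads of these partners may be included.

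Promoter sequences from RefSeq (GRCm38.p6) were at hand for 7 of the 9 genes. Those of 3 are shown, as the 250 bases before the annotated start, because each holds one of 7 short motifs searched on both strands. Ch25h was also the member whose genotype difference passed both thresholds given below at both times. Nceh1 was one of those with a genotype difference that depended on time. Capitals mark the motif.
Ch25h (chr19:34475149-34475398, minus strand): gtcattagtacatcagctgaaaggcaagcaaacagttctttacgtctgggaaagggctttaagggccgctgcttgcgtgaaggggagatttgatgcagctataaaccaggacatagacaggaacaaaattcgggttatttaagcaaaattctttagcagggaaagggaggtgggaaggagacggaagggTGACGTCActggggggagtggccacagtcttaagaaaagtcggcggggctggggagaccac
Nceh1 (chr3:27182754-27183003, plus strand): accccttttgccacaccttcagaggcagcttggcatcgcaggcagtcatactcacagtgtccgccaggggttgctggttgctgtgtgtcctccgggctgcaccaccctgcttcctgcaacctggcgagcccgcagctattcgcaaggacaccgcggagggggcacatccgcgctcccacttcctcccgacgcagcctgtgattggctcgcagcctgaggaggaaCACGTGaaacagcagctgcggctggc
Stard3 (chr11:98358118-98358367, plus strand): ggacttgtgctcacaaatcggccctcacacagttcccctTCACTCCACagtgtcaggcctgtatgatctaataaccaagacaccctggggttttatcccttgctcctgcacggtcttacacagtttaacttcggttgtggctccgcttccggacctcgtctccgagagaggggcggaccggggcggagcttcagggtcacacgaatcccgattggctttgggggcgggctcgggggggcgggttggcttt
The Ch25h window holds TGACGTCA, the cAMP response element bound by CREB and ATF factors, starting 61 bases before the start. This motif was added to the search after the sequence had been read, and 1.55% of 32851 mouse promoter windows of the same length hold it. The Nceh1 window holds the E-box CACGTG at 26 bases (6.02% of windows), and the Stard3 window holds TCACNCCAC, a form of the sterol regulatory element bound by SREBP, at 211 bases (1.05% of windows). GAAANNGAA, the core bound by interferon regulatory factors (7.13% of windows), TTCNNNGAA, bound by STAT dimers (7.02%), GGANTTTCC, bound by NF-kB (1.07%), and TCACGTGA, a longer E-box bound by TFEB that contains CACGTG (0.785%), were in none of the 7 windows. A match describes letters in the window and not binding.

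The first question was how loss of Acly altered these genes during LPS activation. A gene was called changed when its Benjamini-Hochberg adjusted p in edgeR's quasi-likelihood test, over all transcripts tested, was under 0.05 and its log2 fold change was beyond 0.75 in either direction. Ch25h rose in AclyM-KO cells at both times, and it was the one member of the 9 called changed at 3 h and again at 24 h. Of all 11904 genes 1.41% were called higher and 0.596% lower at 3 h, and 0.899% higher and 0.479% lower at 24 h. The median log2 fold change of the 9 genes was 0.01 at 3 h and 0.16 at 24 h, against -0.01 and 0.01 over all genes tested.

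Ch25h had 4.82, 4.73 and 3.79 CPM in the control libraries and 9.02, 12.2 and 12.4 CPM in the AclyM-KO libraries after 3 h. After 24 h it had 0.574, 0.725 and 0.473 CPM in the control and 1.54, 2.13 and 1.19 CPM in the AclyM-KO libraries. Each AclyM-KO library stood above each control library of its time. The means were 11.2 ± 1.91 against 4.44 ± 0.568 CPM at 3 h and 1.62 ± 0.476 against 0.591 ± 0.127 CPM at 24 h (SD, n = 3 per group). The fold was 2.53 at 3 h (log2 fold change 1.34 ± 0.16 SE, edgeR adjusted p = 3.80e-07) and 2.90 at 24 h (1.54 ± 0.27, edgeR adjusted p = 1.21e-04). At 24 h the controls held only 14, 17 and 31 counts of the gene and the AclyM-KO libraries 41, 53 and 31, so the level there is known less precisely than at 3 h, where the counts were 76 to 101 in the control and 176 to 280 in the AclyM-KO libraries. The difference between the log2 fold changes of both times was 0.20 ± 0.31 (edgeR interaction, adjusted p = 0.763), which leaves a wide interval.

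Cyp27a1, the other oxysterol enzyme, had 20.2, 19.5 and 19.7 CPM in the control and 22.6, 12.9 and 14.3 CPM in the AclyM-KO libraries after 3 h. Replicate 1 of the AclyM-KO cells was above all controls, and the other two were below all of them. The log2 fold change was -0.26 ± 0.16 (edgeR adjusted p = 0.328), and without AclyM-KO 3 h replicate 1 it was -0.54 ± 0.11 (edgeR adjusted p = 4.19e-04), still short of the fold threshold. At 24 h the gene was near 1 CPM, with 1.48, 1.28 and 1.10 CPM in the control and 1.46, 1.41 and 2.11 CPM in the AclyM-KO libraries, which overlapped (0.43 ± 0.32, edgeR adjusted p = 0.423). The interaction of genotype and time was 0.70 ± 0.36 (edgeR adjusted p = 0.261), and 0.97 (edgeR adjusted p = 0.00212) without the same library.

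**Figure D1:**
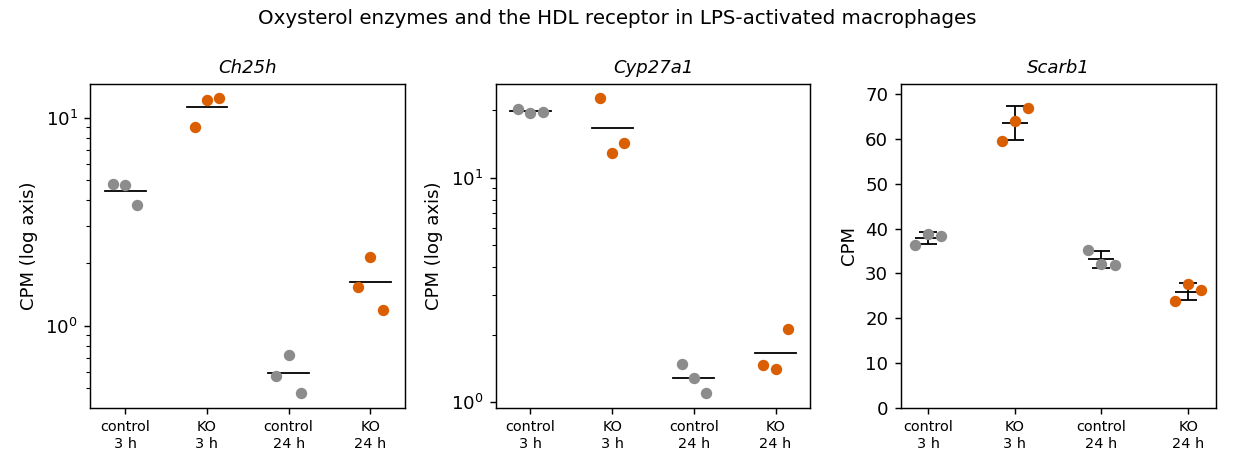
CPM of Ch25h and Cyp27a1 (log axis) and Scarb1 (linear axis) in each of 12 libraries (points; control grey, AclyM-KO orange), with the group mean as a line and, for Scarb1, the SD as bars; control 24 h replicate 1 is not drawn. Ch25h was higher in AclyM-KO libraries at both times, Cyp27a1 was near 20 CPM at 3 h in controls and near 1 CPM at 24 h, and Scarb1 was above control at 3 h and below it at 24 h in AclyM-KO libraries.

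Scarb1 differed between the genotypes in opposite directions at 3 h and at 24 h. After 3 h it had 36.3, 38.8 and 38.3 CPM in the control and 59.5, 64.0 and 67.0 CPM in the AclyM-KO libraries. After 24 h it had 35.3, 32.2 and 32.0 CPM in the control and 23.8, 27.6 and 26.4 CPM in the AclyM-KO libraries. The genotypes did not overlap at either time. The 3 h difference of 0.748 ± 0.07 (log2, 1.68-fold, edgeR adjusted p = 2.59e-09) lay just below the fold threshold. It passed it without control replicate 2 (0.771) or 3 (0.761) or AclyM-KO replicate 1 (0.795) of that time, and under RLE scaling (0.755), DESeq2 (0.753) and 1 transcript per gene (0.751). The 24 h difference was -0.35 ± 0.07 (edgeR adjusted p = 5.65e-04), also short of the fold threshold. The interaction of genotype and time was tested directly and was -1.10 ± 0.10 (edgeR adjusted p = 1.73e-09), a result reached by 9.53% of all genes at an adjusted p under 0.05, where no fold threshold was set.

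The table holds 3 transcripts of Scarb1, 2 of them with identical counts in every library. The remaining transcript had 58.6% to 64.8% of their count and gave 0.72 ± 0.07 at 3 h, -0.34 ± 0.08 at 24 h and an interaction of -1.06 ± 0.11 (log2 ± SE). Reads of shared exons may count toward each transcript, so these rows do not separate the isoforms.

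The members of the cholesteryl ester cycle differed little between the genotypes after 3 h of LPS. Soat1 had 180, 191 and 180 CPM in the control and 180, 187 and 186 CPM in the AclyM-KO libraries at 3 h. At 24 h it had 254, 265 and 264 CPM in the control and 289, 289 and 295 CPM in the AclyM-KO libraries. The genotypes overlapped at 3 h (log2 fold change 0.01 ± 0.05, edgeR adjusted p = 0.937) and did not at 24 h (0.16 ± 0.05, edgeR adjusted p = 0.0197), where the difference was well under the fold threshold. The latter missed 0.05 without control 24 h replicate 2 (0.0994) or AclyM-KO 24 h replicate 1 (0.0507), 2 (0.0546) or 3 (0.0859), with all 13 libraries (0.0712) and with no filter on low counts (0.104). For Soat1 the interaction of genotype and time did not pass (0.15 ± 0.07, edgeR adjusted p = 0.164).

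Nceh1, the hydrolase of the same esters in macrophages, showed a similar arrangement of libraries. It had 227, 235 and 233 CPM in the control and 222, 232 and 231 CPM in the AclyM-KO libraries at 3 h. At 24 h it had 150, 157 and 159 CPM in the control and 183, 178 and 186 CPM in the AclyM-KO libraries. The genotypes overlapped at 3 h (-0.02 ± 0.05, edgeR adjusted p = 0.828) and stood apart at 24 h (0.23 ± 0.05, 1.17-fold, edgeR adjusted p = 9.73e-04). The interaction was 0.25 ± 0.07 (edgeR adjusted p = 0.0159). This second interaction among the 9 genes was lost without control 3 h replicate 2 (edgeR adjusted p = 0.0562) or 3 (0.0511), control 24 h replicate 2 (0.0542) or AclyM-KO 24 h replicate 3 (0.0528), with all 13 libraries (0.0601) and with no filter on low counts (0.0569).

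Lipa, the lysosomal acid lipase, did not pass the test in any comparison. Its CPM were 723, 752 and 738 in the control and 693, 839 and 765 in the AclyM-KO libraries at 3 h, and 692, 752 and 785 against 781, 703 and 769 at 24 h. The 4 groups overlapped throughout. The log2 fold changes with genotype were 0.05 ± 0.06 at 3 h and 0.02 ± 0.06 at 24 h. Its neighbor on chromosome 19, Ch25h, was the member with the largest differences between the genotypes.

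**Figure D2:**
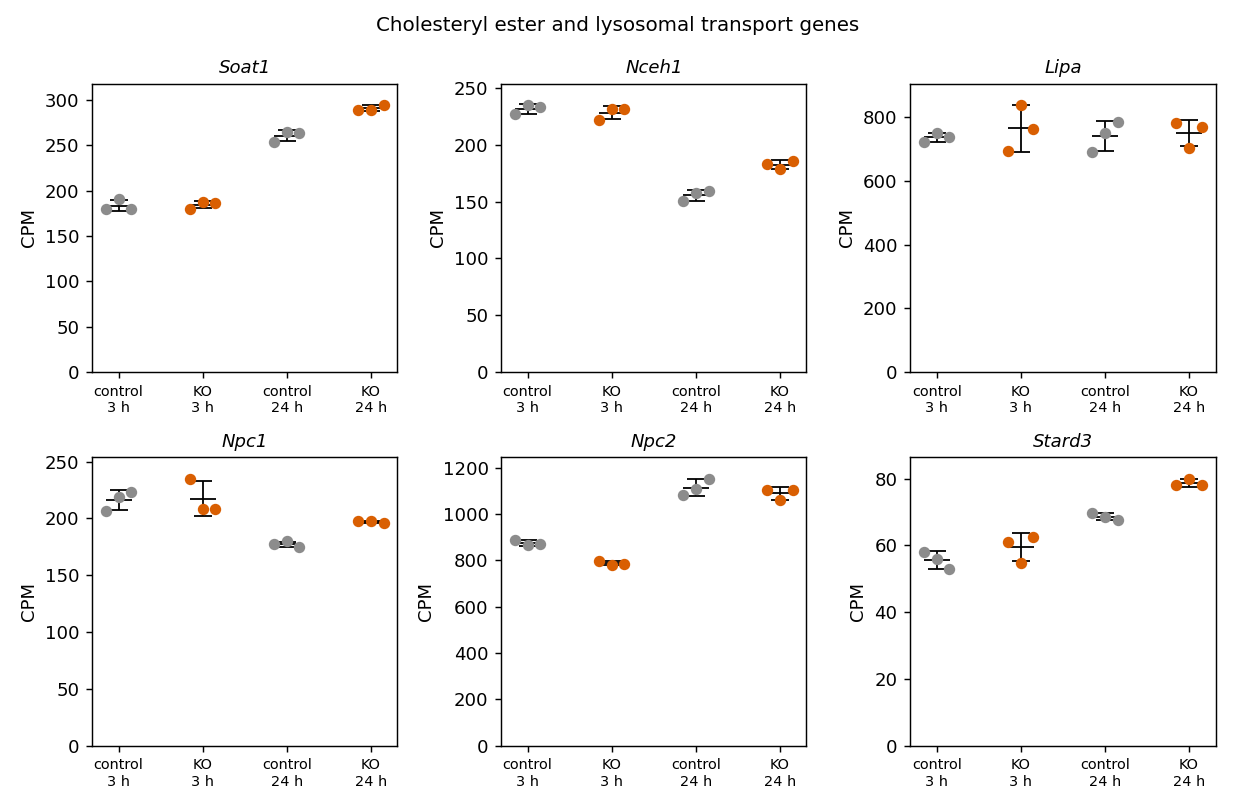
CPM (linear axes from 0) of Soat1, Nceh1, Lipa, Npc1, Npc2 and Stard3 in each of 12 libraries (points; control grey, AclyM-KO orange) with group means and SD as bars; control 24 h replicate 1 is not drawn. At 24 h the AclyM-KO libraries of Soat1, Nceh1, Npc1 and Stard3 lie above all control libraries, while those of Lipa overlap in every group.

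The transport proteins of the lysosome and late endosome gave small differences. Npc1 had 206, 219 and 223 CPM in the control and 235, 209 and 209 CPM in the AclyM-KO libraries at 3 h, which overlapped (0.01 ± 0.05, edgeR adjusted p = 0.944). At 24 h it had 177, 180 and 175 CPM in the control and 198, 197 and 196 CPM in the AclyM-KO libraries, and these did not overlap (0.15 ± 0.05, edgeR adjusted p = 0.0450). This adjusted p missed 0.05 in 14 of 19 alternatives and reached 0.195 with the replicate block, among them each of the 6 in which a 24 h library was left out (0.0858 to 0.124). Npc2, the soluble partner, had an adjusted p under 0.05 at 3 h and not at 24 h. It had 889, 867 and 872 CPM in the control and 796, 780 and 786 CPM in the AclyM-KO libraries at 3 h, a difference of -0.15 ± 0.04 (edgeR adjusted p = 0.0156) with no overlap, which missed the threshold without control 3 h replicate 1 or AclyM-KO 3 h replicate 3 and with all 13 libraries. At 24 h, with means of 1114 ± 36.1 CPM in the control and 1089 ± 26.2 CPM in the AclyM-KO libraries (SD, n = 3 per group), the genotypes overlapped (-0.03 ± 0.04). The interaction of genotype and time did not pass for Npc1 (0.14 ± 0.07, edgeR adjusted p = 0.233) or Npc2 (0.12 ± 0.06, 0.234).

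Stard3, which tethers late endosomes to the endoplasmic reticulum and moves cholesterol between them, had 58.1, 55.9 and 52.9 CPM in the control and 61.1, 54.6 and 62.6 CPM in the AclyM-KO libraries at 3 h. At 24 h it had 69.7, 68.6 and 67.6 CPM in the control and 78.0, 79.9 and 78.0 CPM in the AclyM-KO libraries. The genotypes overlapped at 3 h (0.09 ± 0.06, edgeR adjusted p = 0.321) and stood apart at 24 h (0.20 ± 0.06, edgeR adjusted p = 0.0168). The adjusted p was 0.119 with the replicate block, and it also missed 0.05 without control 24 h replicate 3 (0.0504) or 4 (0.0643) or AclyM-KO 24 h replicate 2 (0.0700). For Stard3 the interaction of genotype and time did not pass (0.10 ± 0.08, edgeR adjusted p = 0.489).

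Counted by libraries alone, 3 of the 9 genes (Ch25h, Npc2 and Scarb1) did not overlap between the genotypes at 3 h, where 30.1% of all genes tested did not. At 24 h 6 of the 9 (all but Cyp27a1, Npc2 and Lipa) did not overlap, against 33.1% of all genes. The same 6 genes had an adjusted p under 0.05 at 24 h, 5 of them without reaching the fold threshold, and 3 (Ch25h, Npc2 and Scarb1) did at 3 h. Over all genes 13.9% had one at 24 h and 15.4% at 3 h. Under the alternatives between 3 and 6 of the 9 did at 24 h, the lowest without AclyM-KO 24 h replicate 2, where Soat1, Npc1 and Stard3 missed that threshold. Higher in AclyM-KO cells in the main values were Ch25h, Soat1, Nceh1, Npc1 and Stard3, and lower was Scarb1.

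**Figure D3:**
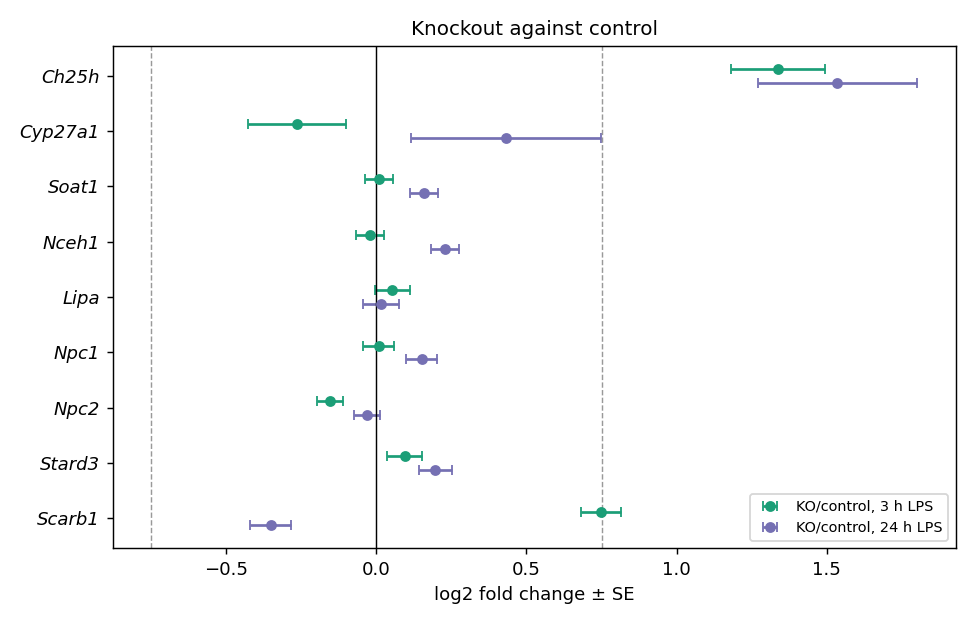
Log2 fold change of AclyM-KO against control after 3 h (green) and 24 h (purple) of LPS for the 9 genes, from edgeR, with SE as bars and the fold threshold of 0.75 as dashed lines. Ch25h lies beyond the threshold at both times, and Scarb1 lies on opposite sides of 0, at 0.748 and -0.35.

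The second question was how the genes moved between the early and the late time of LPS activation. Both oxysterol enzymes fell from 3 h to 24 h in either genotype. Ch25h fell by 3.00 ± 0.23 on the log2 scale in control cells (edgeR adjusted p = 5.02e-13) and fell by 2.80 ± 0.18 in AclyM-KO cells (6.12e-15). Cyp27a1 fell by 4.00 ± 0.22 in control cells (edgeR adjusted p = 2.19e-10) and fell by 3.31 ± 0.22 in AclyM-KO cells (2.79e-09). In AclyM-KO cells Scarb1 fell by 1.29 ± 0.07 (edgeR adjusted p = 5.72e-17). In control cells its change was -0.19 ± 0.07, and the test of the difference between the genotypes is the interaction given above. The counts of members called were thus 2 lower and 0 higher in control and 3 lower and 0 higher in AclyM-KO cells. Over all genes 40.4% changed over time in control cells (2485 higher and 2321 lower) and 41.9% in AclyM-KO cells (2609 higher and 2383 lower).

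The other genes stayed within the fold threshold over time. Soat1 was higher at 24 h by 0.51 ± 0.05 in control and 0.66 ± 0.05 in AclyM-KO cells, Npc2 by 0.35 ± 0.04 and 0.47 ± 0.04, and Stard3 by 0.30 ± 0.06 and 0.41 ± 0.06 (log2 ± SE). Nceh1 was at -0.57 ± 0.05 and -0.32 ± 0.05, and Npc1 at -0.28 ± 0.05 and -0.14 ± 0.05. Each of these 10 values had an adjusted p under 0.05, as did 74.9% of all genes in control and 75.7% in AclyM-KO cells. Lipa was at 0.01 ± 0.06 in control and -0.03 ± 0.06 in AclyM-KO cells. The synthetic enzyme Soat1 and the hydrolase Nceh1 thus had values of opposite sign over time in both genotypes. This did not hold for ester genes in general. Of the other such genes tested, Soat2 (2.97 ± 0.28 in control and 2.12 ± 0.23 in AclyM-KO cells) and the hydrolase Lipe (0.37 ± 0.09 and 0.23 ± 0.09) were higher at 24 h. Lcat was lower (-2.17 ± 0.45 and -1.53 ± 0.42).

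**Figure D4:**
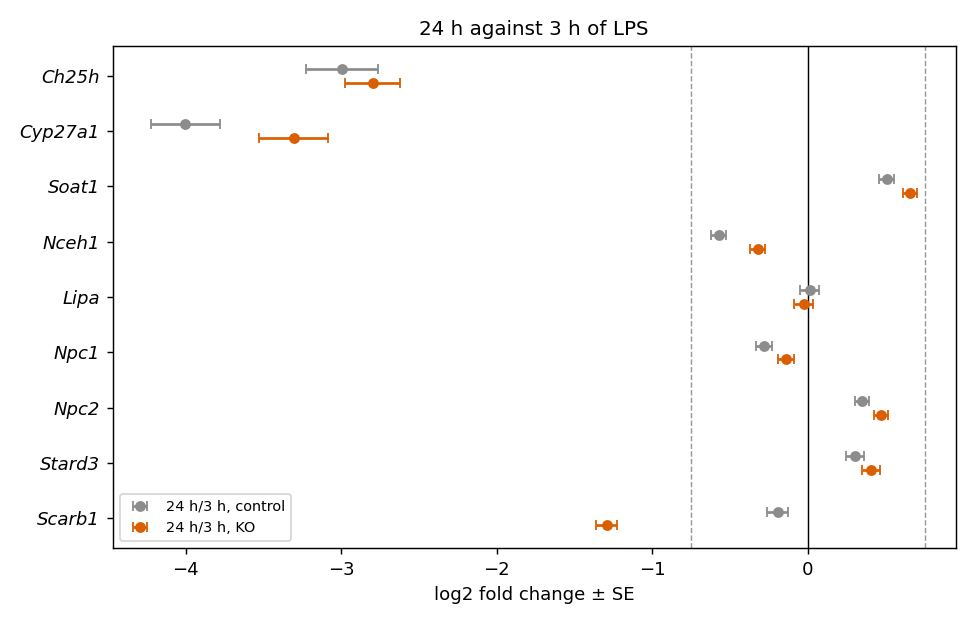
Log2 fold change from 3 h to 24 h of LPS in control (grey) and AclyM-KO (orange) cells for the 9 genes, from edgeR, with SE as bars and the fold threshold of 0.75 as dashed lines. Ch25h and Cyp27a1 lie between -4.00 and -2.80 in both genotypes, and Scarb1 passes the threshold in AclyM-KO cells at -1.29.

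Ordered by their group means, the levels of Ch25h ran from control at 24 h through AclyM-KO at 24 h and control at 3 h to AclyM-KO at 3 h, with no overlap between neighbors and a ratio of 19.0 between the ends. Scarb1 ran from AclyM-KO at 24 h through control at 24 h and control at 3 h to AclyM-KO at 3 h, again with no overlap between neighbors, over a ratio of 2.45. Cyp27a1 covered a ratio of 15.4, with the genotypes overlapping at each time and the times apart. The other 6 genes covered ratios from 1.04 (Lipa) to 1.58 (Soat1).

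Per kilobase of exon, Npc2 and Lipa were the most abundant of the 9 transcripts in each group, with group means of 239 to 338 CPM per kilobase. Nceh1, Npc1, Stard3 and Soat1 had group means of 21.9 to 51.7, and Scarb1 of 10.9 to 26.8 CPM per kilobase. Ch25h and Cyp27a1 had the lowest levels, from 0.426 to 8.09 and from 0.679 to 10.5 CPM per kilobase.

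Wider lists of genes from the same pathways were read at the same thresholds. Over all genes 1.41% were called higher and 0.596% lower at 3 h, and 0.899% higher and 0.479% lower at 24 h. Of 8 other genes of oxysterol metabolism and sensing, 3 were tested (Hsd3b7, Sult2b1 and Gpr183) and 0 changed with genotype at either time. Gpr183, the receptor for 7α,25-dihydroxycholesterol, which is made from the product of Ch25h, was at 0.566 ± 0.232 and 0.559 ± 0.201 CPM at 3 h in control and AclyM-KO cells and at 0.408 ± 0.201 and 0.351 ± 0.115 CPM at 24 h (SD, n = 3 per group). Cyp7b1, which takes 25-hydroxycholesterol further, had 8 counts over all libraries and was not tested. Of 8 other genes of ester synthesis and hydrolysis, 3 were tested, and 1 (Soat2, a second acyltransferase) rose at 3 h, from 0.425 ± 0.194 to 0.917 ± 0.333 CPM (log2 fold change 1.13 ± 0.37, edgeR adjusted p = 0.0360). Soat2 rested on few counts at 3 h, where 1 count was worth 0.0437 to 0.0512 CPM. Its values under the alternatives were not examined. Lcat had the largest value of the lists at 24 h, 0.85 ± 0.52 (edgeR adjusted p = 0.305), at 0.130 CPM in control and 0.268 CPM in AclyM-KO cells.

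Of 28 other sterol transport genes 25 were tested, and 1 of them changed at each time. Stard4, a cytosolic cholesterol carrier and SREBP target, rose at 3 h from 18.6 ± 0.711 to 32.4 ± 3.04 CPM (0.80 ± 0.08, edgeR adjusted p = 3.98e-08) and fell at 24 h from 24.3 ± 1.16 to 14.1 ± 1.35 CPM (-0.78 ± 0.08, edgeR adjusted p = 6.45e-08). Its interaction of genotype and time was -1.58 ± 0.12 (edgeR adjusted p = 4.99e-11), of the same sign as that of Scarb1. Tmem97, which binds Npc1, had an interaction of -0.88 ± 0.18 (edgeR adjusted p = 0.00126), and Mospd2 one of -0.37 ± 0.09 (0.00690). An adjusted p under 0.05 in this test was reached by 9.53% of all genes. Osbpl5 was at 0.62 ± 0.19 at 3 h and Cav1 at 0.61 ± 0.22 at 24 h (edgeR adjusted p = 0.0232 and 0.0583), both short of the fold threshold. The median log2 fold change of the transport list was 0.04 at 3 h and -0.05 at 24 h, against -0.01 and 0.01 over all genes.

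**Figure D5:**
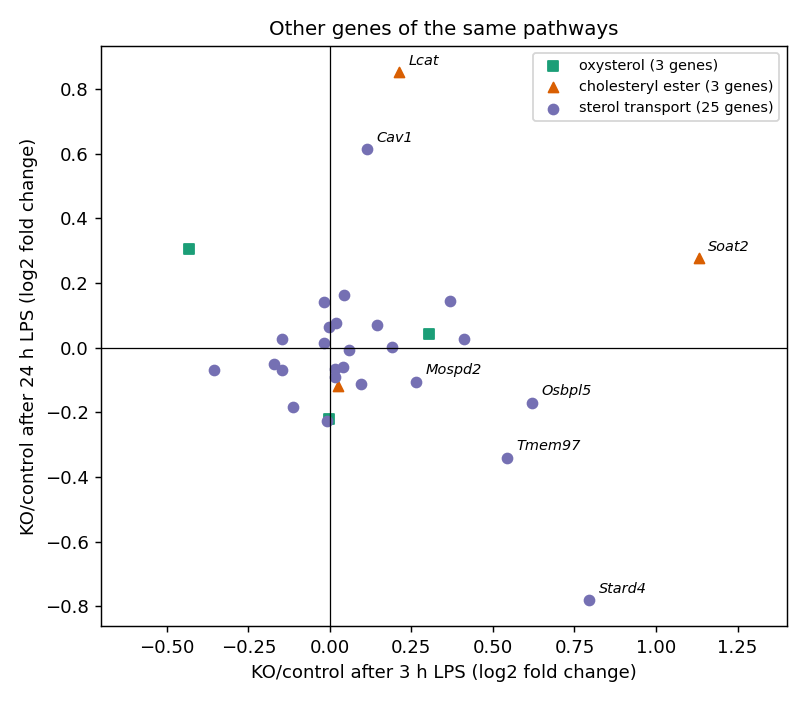
Log2 fold change of AclyM-KO against control after 3 h (x axis) and 24 h (y axis) of LPS for the 31 tested genes of the wider lists, by list. Stard4 lies at 0.80 and -0.78, Soat2 at 1.13 on the x axis, and most other genes lie near 0 on both axes.

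The genes whose log2 CPM followed each member over the 12 libraries were named by the highest Pearson r among 6302 genes with a mean of at least 10 CPM, as a description, since all libraries share the difference between the 2 times. For Ch25h they were Il6 (r = 0.98) and Irf5 (0.98). Il6, the cytokine, had group means of 48.3 CPM in control and 97.3 CPM in AclyM-KO cells at 3 h, and of 9.09 and 24.2 CPM at 24 h. Scarb1 was followed by Pira2 (r = 0.99), with group means of 24.8 CPM in control and 35.8 CPM in AclyM-KO cells at 3 h, and of 23.7 and 21.01 CPM at 24 h. Cyp27a1 was followed by Orai2 and Pogk, Soat1 by Edem2 and Tent4b, Nceh1 by Cmpk2 and Alcam, Npc1 by Cpsf7 and Zfyve16, Npc2 by Zfp740 and Cd38, and Stard3 by Tnfrsf1b and Ticam1, with r between 0.96 and 1.00. Lipa had the weakest partners, Elob (0.87) and Tmem256 (0.78).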

How the data were processed

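BMDMs of 2 genotypes were measured at 2 times of LPS in 13 libraries, grouped by their labels. Per the study's methods, strand-specific mRNA libraries were sequenced on an Illumina HiSeq and aligned to mm10. The labels name CASAVA 1.8.2 and STAR 2.5.2b. The deposited values are raw counts per RefSeq transcript, made by the authors with HOMER. 0 columns went unused. Of 35745 transcripts 35628 were matched to symbols through RefSeq and GENCODE tables. The other 117 held 1.13% of counts. The 9 genes, the wider lists, markers and motifs were chosen with earlier results of these data known.

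The counts were filtered (filterByExpr), scaled by TMM and fitted in edgeR 4.0.16 (R 4.3.3) with robust quasi-likelihood over 12 libraries, 3 per group. Control 24 h replicate 1 (34467 counts) was left out. CPM use TMM-scaled totals, and 1 count was worth 0.0153 to 0.0512 CPM. SE is the log2 fold change divided by the square root of F. Pairs of replicates differed by more than sampling noise (chi-square per degree of freedom 2.66 to 11.9). Nothing says that replicates came from separate mice, so p-values measure the spread between these samples, which may be technical. Scripts were tested on simulated data.

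Named were all 9 genes, list genes that passed a genotype or interaction test, the 3 list genes with the largest absolute log2 fold change in each genotype contrast, and 2 best-correlated genes per member. A best-correlated gene of Scarb1 is not reported here. Gpr183, Cyp7b1 and Lipe were named outside this rule, after their values were seen. Alternatives were all 13 libraries, DESeq2 1.42.0, RLE scaling, no filter, 1 transcript per gene, the 6 libraries of 1 time, a fold threshold of 1, a replicate block and each library left out.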

Additional observations from a re-analysis of the deposited data

Results flagged for a closer look

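Among the 4 control 24 h libraries, 6 of the 9 genes had a library whose gap to the nearest of the others took up an unusually large share of the group's range (Dixon's ratio above its 95% critical value for 4 samples). The ratios were 0.982 for Cyp27a1, 0.930 for Soat1, 0.878 for Nceh1, 0.953 for Npc1, 0.896 for Npc2 and 0.957 for Stard3. In each case the library was replicate 1, with 34467 counts, where these genes had between 1 and 21 counts. For 4 values of like spread, chance gives such a ratio in about 1 of 20 groups. That rate does not apply here, because 1 count in replicate 1 was worth 22.4 CPM.

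The difference between the genotypes depended on the time of LPS for 2 of the 9 genes by edgeR's interaction test, Scarb1 at -1.10 and Nceh1 at 0.25 on the log2 scale. Over all genes 9.53% passed this test. Nceh1 missed the threshold in 6 of 18 alternatives and Scarb1 in 0 of 18.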

How the results depend on the processing

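The rise of Ch25h in AclyM-KO cells was called under every alternative run, with log2 fold changes of 1.24 to 1.47 at 3 h and of 1.30 to 1.71 at 24 h, 1.54 with all 13 libraries. The number of members changed at 3 h was 1, and 2 with RLE size factors, with 1 transcript per gene and with DESeq2, each time by Scarb1 passing the fold threshold. Over the libraries left out in turn it was 1 to 2. The number of members past the interaction test was 2, and 1 with all 13 libraries, and 1 to 3 over the libraries left out. The lowest came where Nceh1 missed the threshold, and the highest without AclyM-KO 3 h replicate 1, where Cyp27a1 passed it. Cyp27a1 also passed it with no filter on low counts (0.66, edgeR adjusted p = 0.0399). The counts at 24 h and over time kept their values. Of the 828 single-gene values, 791 kept direction and side of the threshold, 6 lost a call, 8 gained one and 23 changed sign, all of the last without a call. Sign changes outside the left-out libraries were Npc2 at 24 h with all 13 libraries (0.0077), Lipa at 24 h with no filter (-0.0087), the Lipa interaction under the replicate block (0.024) and Lipa over time in control cells with RLE (-0.014), the replicate block (-0.049) and DESeq2 (-0.0094). Over the libraries left out, values at 3 h ranged from -0.0029 to 0.040 for Soat1, -0.030 to 0.0026 for Nceh1, -0.048 to 0.041 for Npc1 and -0.013 to 0.12 for Lipa. Lipa ranged from -0.034 to 0.060 at 24 h, from -0.12 to 0.017 in the interaction, from -0.030 to 0.060 over time in control and from -0.098 to 0.025 in AclyM-KO cells, and the Ch25h interaction from -0.042 to 0.38. The cause of these differences was not tested. Libraries with the same replicate number in 2 groups had deviations correlated at -0.026 to 0.058 (15 pairs). Between AclyM-KO 3 h and AclyM-KO 24 h these were 0.023 to 0.044, and those of different numbers were -0.036 to -0.0062. Control 3 h and AclyM-KO 24 h had the same split of signs, and the other pairs of groups did not. These values do not settle whether the numbers pair the samples, and the main fit had no replicate block. With a replicate block Ch25h was at 1.33 (edgeR adjusted p = 5.34e-06) at 3 h and 1.37 (0.00922) at 24 h, and no count of members called moved. The members at an adjusted p under 0.05 at 24 h, whatever the fold, went from 6 to 4 (without Npc1 and Stard3). In place of 1134 genes 838 passed the interaction test. Number 4 occurred only in control 24 h replicate 4, so its block level fitted this library alone and removed it from comparisons with that group. Leaving that library out gave Ch25h at 1.31 at 24 h (edgeR adjusted p = 0.00880), also without Npc1 and Stard3. At 24 h an effect of the block cannot be told apart from the loss of this library. Depth limits Ch25h and Cyp27a1 at 24 h, where single libraries held 14 to 72 counts.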
